A study of Rattus norvegicus with 2 samples.

Results

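Transporters for nutrients, ions and transmitters were examined in cultured cells of the rat carotid body. The set holds every spot of the array whose name contains the word transporter, apart from 3 spots named for dopamine, acetylcholine or vesicular amine transport. It has 46 of the 1185 spots, here grouped by the substrate in the deposited name: 5 for amino acids, 6 for peptides, 13 for transmitters, 6 for sugars, 8 for organic ions, 6 for inorganic ions and 2 for urea or urate. The cells came from Sprague Dawley rats and were grown in primary culture with serum and nerve growth factor. For 7 days they were held at 21% oxygen (normoxia) or at 1% oxygen (chronic hypoxia). Each culture pooled 16 carotid bodies, and each condition is represented by 3 radioactively probed nylon membranes. The labels do not say whether the membranes of a condition came from separate cultures, so every p-value measures membrane-to-membrane spread alone, and that may be technical. The comparison asks which genes differ in these cells after a week at low oxygen.

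Membrane transporters move solutes that cannot cross lipid bilayers. Some let a substrate run down its own gradient, as glucose transporters do, some couple uptake to the sodium or proton gradient, as peptide and transmitter transporters do, and some exchange one amino acid for another. The carotid body senses arterial oxygen through its glomus cells, which release several transmitters, and hypoxia-inducible factors are known in many tissues to raise transcription of glucose and lactate transporters. In a bulk culture, fewer cells of a type and less RNA per cell cannot be told apart.

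Of 8 glomus cell markers matched by name, the dopamine transporter, dopamine beta-hydroxylase and carboxypeptidase E were above background on all 6 membranes, while Dopa decarboxylase, chromogranin A and the neuronal vesicular amine transporter were above it on none. Of the other cell types, none of 3 immune markers was above background, and endothelial nitric oxide synthase was the 1 of 4 endothelial markers above it on all 6. Background differed between membranes: the median intensity was 1704 to 3409 on 5 membranes and 16411 on chronic hypoxia membrane 3. No label names a batch of membranes, but the step between neighbouring intensity values took 3 sizes, inferred here from the values and called scan formats below. Normoxia 1 and chronic hypoxia 1 share the first format, normoxia 2, normoxia 3 and chronic hypoxia 2 the second, and chronic hypoxia 3 stands alone. Differences within a format, or with format as a block, therefore take nothing from chronic hypoxia 3. Chronic hypoxia membranes 1 and 3 were more alike than any other pair, with a rank correlation of 0.710 over the 46 transporters and 0.772 over all spots, against -0.067 to 0.493 and 0.267 to 0.58 in the other 14 pairs. Every transporter above background in chronic hypoxia was so on membrane 1, membrane 3 or both, and values with the pair averaged as 1 membrane are given beside those spots.

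Most transporter spots did not pass the threshold for background on any membrane. A spot counted as above background on a membrane where it exceeded the membrane median by more than 3 spreads, a spread being the root mean square distance of the values below the median from it. The threshold is set from the membrane's own spots, so a spot under it may still hold weak signal. Spots called at background below are those not above this threshold. By this rule 6 of the 46 transporters (13.0%) were above background on at least 1 membrane, against 26.8% of all 1185 spots, and 2 (4.35%) on at least 3 membranes, against 12.8%. Normoxia membranes 1, 2 and 3 had 1, 3 and 4 transporters above background, and the chronic hypoxia membranes, in the same order, 3, 0 and 4. Of all spots 13.6%, 11.7% and 17.3% were above background in normoxia and 13.9%, 6.08% and 15.7% in chronic hypoxia. Chronic hypoxia membrane 2, with 0 transporters, thus had the lowest share over the whole array too. No transporter lay among the brightest 5% of spots on any membrane, and the median transporter ranked between the 34.0th and the 51.1th percentile of a membrane. The 6 spots were the peptide transporter Slc15a2 (5 membranes), a spot named organic anion transporter (4), the proline transporter Slc6a7 (2), the serotonin transporter Slc6a4 (2), the L-type amino acid transporter Slc7a5 (1) and the chromaffin granule amine transporter Slc18a1 (1). All 6 sugar, 6 inorganic ion and 2 urea or urate transporters stayed below the threshold on every membrane.

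**Figure D1:**
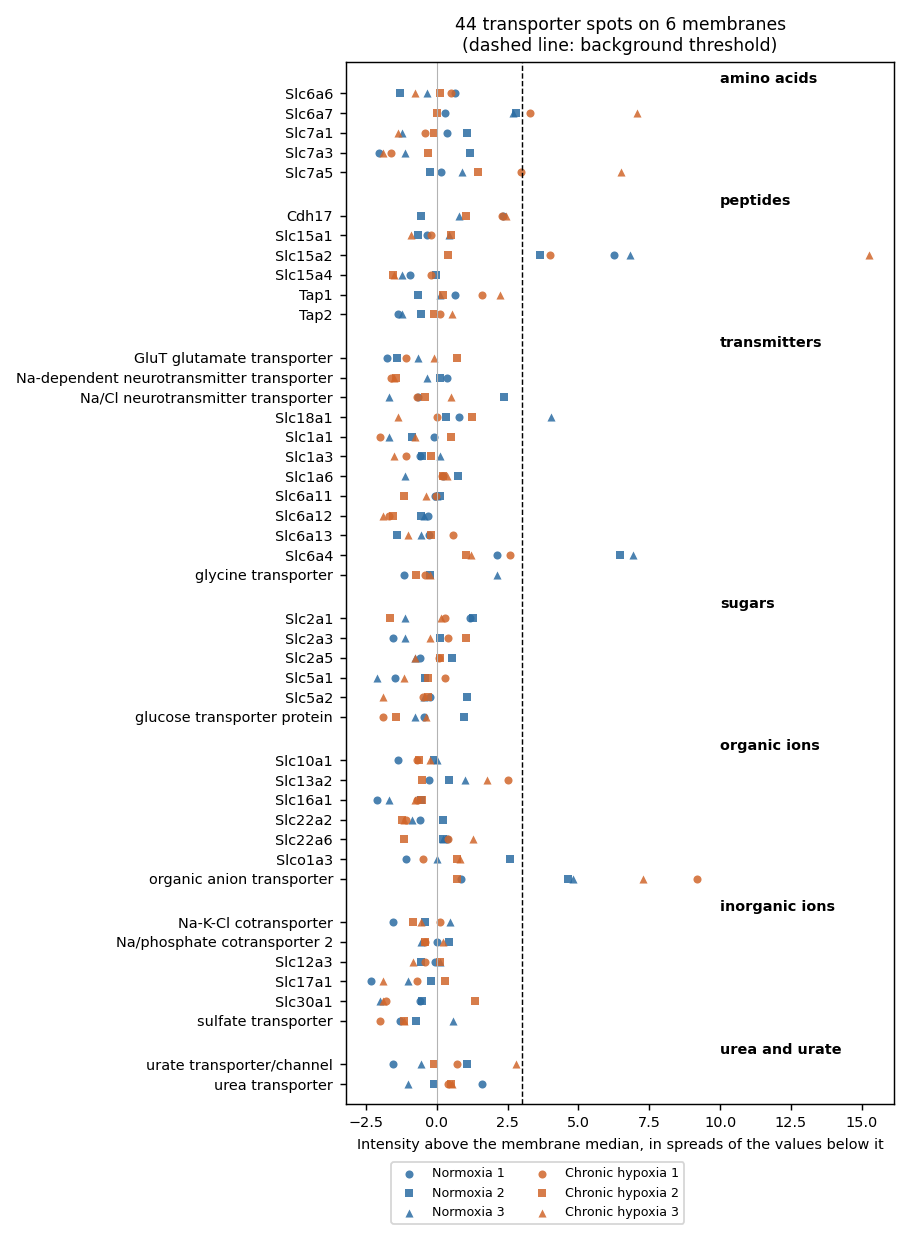
Intensity of 44 of the 46 transporter spots on each membrane, as spreads above the membrane median (x axis), grouped by substrate; circles, squares and triangles are membranes 1, 2 and 3 of normoxia (blue) and chronic hypoxia (orange). Points to the right of the dashed line at 3 are above background, which holds for 6 spots, the farthest being Slc15a2 at 15.27 on chronic hypoxia membrane 3.

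Between the conditions no transporter passed. Of the 46 spots, 40 passed the filter on low values and were tested, and 0 had a limma adjusted p under 0.05, as for 0% of the 1038 tested spots of the array; the lowest adjusted p of a transporter was 0.630. At an unadjusted p under 0.05 there were 4 of 40 (10%) transporters against 7.23% of all tested spots. In the limma fit 22 transporters were higher in chronic hypoxia and 18 lower; the median log2 difference was 0.12, against 0.03 over all tested spots. Normoxia and chronic hypoxia values did not overlap for 4 of 40 (10%), against 13.9% of all tested spots. These 4 were Slc7a5 and Tap2, higher in chronic hypoxia, and the betaine/GABA transporter Slc6a12 and a sodium-dependent neurotransmitter transporter, lower in it. The same 4 had the unadjusted p under 0.05. The last 2 passed the filter through their 3 normoxia membranes alone, so the filter favoured the difference seen. Both counts of 4 include them, as do the 18 lower and the median. Over the array 16 of 1038 tested spots passed through normoxia alone and 6 through chronic hypoxia alone.

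**Figure D2:**
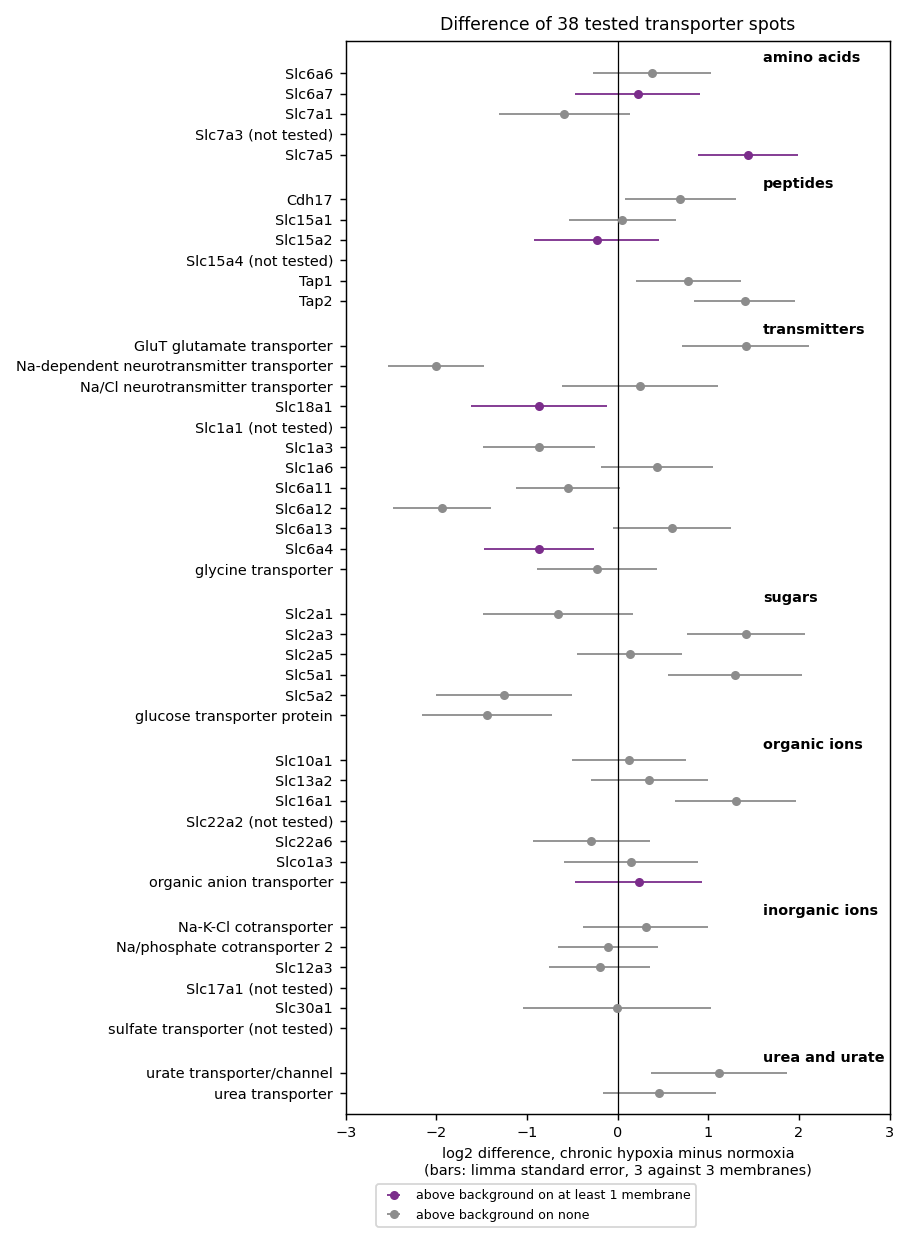
log2 difference between chronic hypoxia and normoxia (x axis) for 38 of the 40 tested transporter spots, with limma standard errors from 3 against 3 membranes; purple marks the 6 spots above background on at least 1 membrane. The differences run from -2.00 to 1.44, and none passed the test.

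Among the 5 amino acid transporters, the L-type amino acid transporter 1 was the 1 tested spot whose conditions did not overlap. Slc7a5 carries large neutral amino acids such as leucine into cells in exchange for others. The 3 normoxia membranes gave intensities of 2531, 3197 and 3512, and the 3 chronic hypoxia membranes 3254, 4864 and 22651, here and below in the order of their numbers. Only on chronic hypoxia membrane 3, where the threshold was 19280, was it above background. On chronic hypoxia membrane 1 it stood 2.99 spreads above the median, just under the limit of 3, on chronic hypoxia membrane 2 at 1.46, and on the normoxia membranes at 0.15, -0.22 and 0.90. After normalization the log2 values averaged 10.63 ± 0.39 (SD, n = 3) for normoxia and 12.08 ± 0.32 (SD, n = 3) for chronic hypoxia, and all 3 chronic hypoxia values lay above all 3 normoxia values. The log2 difference of 1.44 (SE 0.55) did not pass in limma (adjusted p = 0.645), and the exact permutation p, two-sided, was 0.1, the smallest that 3 against 3 allows. Taken within a scan format, the difference was 1.32 in the first and 1.21 in the second, and 1.25 with format as a block. These values take nothing from chronic hypoxia membrane 3, so they compare membranes where the spot was not above background. With chronic hypoxia membranes 1 and 3 averaged the difference was 1.38. Because Slc7a5 was not above background in normoxia, the fold is a bound, 1.08-fold higher in chronic hypoxia; it takes in 2 membranes where the spot was not above background and is not a strict lower limit. Here and below a bound sets the brighter group's mean against, per membrane of the dimmer group, the higher of the spot's own value and the lowest value above background. The spot adjoins that of the surface glycoprotein CD9, which was above background on all 6 membranes, with intensities of 7305, 7958 and 45567 in normoxia and 15138, 7021 and 31859 in chronic hypoxia. In spreads above the median CD9 stood at 6.86, 4.72 and 46.33 in normoxia and at 25.88, 3.62 and 16.15 in chronic hypoxia. The part of CD9 in the Slc7a5 signal was not tested.

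The core letters of the hypoxia response element, ACGTG or GCGTG, can be looked up in the promoters, and those of Slc7a5 and of Slc15a2, the transporter above background on the most membranes, are shown because the comparison is one of oxygen. Both are from RefSeq, build GRCr8, and run 5′ to 3′ along the gene from 250 bases before to 50 after its start; capitals mark ACGTG or GCGTG on either strand. The Slc7a5 window is chr19:66872363-66872662 on the minus strand and the Slc15a2 window chr11:77519315-77519614 on the plus strand.
Slc7a5: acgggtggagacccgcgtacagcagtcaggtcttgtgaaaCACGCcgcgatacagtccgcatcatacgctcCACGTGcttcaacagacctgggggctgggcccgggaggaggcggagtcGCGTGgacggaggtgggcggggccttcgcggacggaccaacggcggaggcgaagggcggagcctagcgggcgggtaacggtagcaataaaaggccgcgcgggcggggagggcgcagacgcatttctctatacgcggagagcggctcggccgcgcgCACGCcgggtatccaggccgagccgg
Slc15a2: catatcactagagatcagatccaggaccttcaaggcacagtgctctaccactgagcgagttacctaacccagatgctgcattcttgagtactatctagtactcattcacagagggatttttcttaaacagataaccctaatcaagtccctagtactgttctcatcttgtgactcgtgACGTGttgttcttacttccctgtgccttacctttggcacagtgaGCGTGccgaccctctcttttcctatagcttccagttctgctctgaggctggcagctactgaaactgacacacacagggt
The Slc7a5 window holds ACGTG on both strands at 1 place, where the copies overlap as CACGTG, and GCGTG at 3 places. The Slc15a2 window holds each motif once. Of the 25 transporter genes with a promoter in the table, 9 (36%) held ACGTG on either strand, against 19.3% of all 33469 promoters and 19.8% of the promoters of protein-coding genes. For GCGTG the count was 10 of 25 (40%), against 29.7% of all promoters and 34.7% of those of protein-coding genes. A match is a description of the letters and not a measured site.

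The high affinity proline transporter Slc6a7, a brain-type sodium-coupled carrier, was above background on 2 chronic hypoxia membranes and on no normoxia membrane. Its intensity was 2633, 6097 and 5163 in normoxia and 3412, 3409 and 23175 in chronic hypoxia, which is 0.29, 2.79 and 2.68 spreads above the median against 3.29, 0.00 and 7.07. Normoxia membranes 2 and 3 thus lay close under the threshold and chronic hypoxia membrane 2 at the membrane median, so the groups overlapped. The log2 difference was 0.22 (SE 0.69, limma adjusted p = 0.941, exact permutation p = 0.8). By scan format the value was 1.30 in the first, -1.34 in the second and -0.21 with format as a block, and it was -0.08 with chronic hypoxia membranes 1 and 3 averaged, so its direction was not stable, and its bound was under 1. The cationic amino acid transporters Slc7a1 and Slc7a3, which carry arginine and lysine, and the taurine transporter Slc6a6 were above background on no membrane; Slc7a3 did not pass the filter.

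Of the 6 peptide transporters, Slc15a2 was above background, and on more membranes than any other spot of the set. The spot adjoins that of the dopamine transporter, which was in the brightest 5% on all 6 membranes. The part of that neighbour in the Slc15a2 signal was not tested. Slc15a2 (PEPT2) takes up di- and tripeptides together with protons and is best known from kidney and brain. Its intensity was 6888, 6924 and 8988 in normoxia, all above the thresholds of 4561, 6300 and 5458. In chronic hypoxia it was 3774 and 31015 on membranes 1 and 3, above thresholds of 3261 and 19280, and 3821 on membrane 2, below 6406. The 3 normoxia membranes were close together and the chronic hypoxia membranes held both the lowest and the highest normalized value, so the groups overlapped. The normalized log2 values averaged 12.38 ± 0.25 (SD, n = 3) for normoxia and 12.15 ± 1.25 (SD, n = 3) for chronic hypoxia. The log2 difference was -0.23 (SE 0.69), a ratio of 0.852 (limma adjusted p = 0.938, exact permutation p = 0.8). The first scan format gave -0.39 and the second -1.40, both without chronic hypoxia membrane 3, and format as a block -0.97. Without chronic hypoxia membrane 2 it was 0.44, and with chronic hypoxia membranes 1 and 3 averaged -0.54. The authors' deposited table lists Slc15a2 at 1985 (normoxia) and 2793 (chronic hypoxia), a ratio of 1.41, the opposite direction to the fit.

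The other peptide transporters were not above background. Tap2, which with Tap1 pumps antigen peptides into the endoplasmic reticulum, was 1443, 2887 and 1545 in normoxia and 1754, 3309 and 16915 in chronic hypoxia. These values lay between -1.38 and 0.53 spreads from the membrane median. Its groups did not overlap after normalization, and its log2 difference of 1.40 (SE 0.56, limma adjusted p = 0.645) compares spots at background, so no fold is given. Tap1, the intestinal peptide transporter Slc15a1 and the cadherin-like proton-driven peptide transporter Cdh17 had differences of 0.78, 0.05 and 0.69 and did not pass. The peptide and histidine transporter Slc15a4 did not pass the filter. Cdh17, named after its values were seen, came nearest to the threshold among them, with 2.43 spreads on chronic hypoxia membrane 3.

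Of the 13 transmitter transporters, Slc6a4 and Slc18a1 were above background, both on normoxia membranes alone. Slc6a4 clears serotonin from the extracellular space. Its intensity was 3930, 9628 and 9100 in normoxia and 3045, 4436 and 17567 in chronic hypoxia, which is 2.11, 6.45 and 6.93 spreads above the median against 2.58, 1.03 and 1.21. Normoxia membranes 2 and 3 were above background and normoxia membrane 1 lay within the range of the chronic hypoxia membranes, so the groups overlapped. The log2 difference was -0.87 (SE 0.61, limma adjusted p = 0.764, exact permutation p = 0.2), and by scan format 0.14 in the first, -1.28 in the second and -0.68 with format as a block. Without normoxia membrane 2 it was -0.41. Its bound was under 1, so no fold is given. Slc18a1 loads amines into the granules of chromaffin-like cells and is a glomus cell marker. It had 2996, 3718 and 6409 in normoxia and 1702, 4654 and 15095 in chronic hypoxia, and was above background on normoxia membrane 3 alone. Its log2 difference of -0.87 (SE 0.75, limma adjusted p = 0.784, exact permutation p = 0.4) was -0.01 with format as a block, -0.12 without chronic hypoxia membrane 3, -0.58 without normoxia membrane 3 and -1.56 without chronic hypoxia membrane 2. Its bound was under 1.

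Carriers of GABA, glycine and glutamate were at background on all membranes. They included the GABA transporters Slc6a11 and Slc6a13, the glutamate transporters Slc1a1, Slc1a3 and Slc1a6, a glycine transporter and a glutamate transporter named GluT. Of the 12 tested transmitter transporters 4 were higher in chronic hypoxia and 8 lower, and their median log2 difference was -0.51. The smallest p values of the set belonged to a pair of spots of this class at background, both of which entered the test through normoxia alone. The 8 lower and the class median include this pair, so the filter favoured that direction. The sodium-dependent neurotransmitter transporter had 2681, 3515 and 2369 in normoxia and 875, 1963 and 14955 in chronic hypoxia. All 3 chronic hypoxia values lay below the membrane median, at -1.60, -1.45 and -1.52 spreads, and the normoxia values at 0.36, 0.11 and -0.34. Its log2 difference was -2.00 (SE 0.53, limma adjusted p = 0.630). The betaine/GABA transporter Slc6a12, which also takes up the osmolyte betaine, had 2214, 2891 and 2266 against 825, 1854 and 14591, with a log2 difference of -1.94 (SE 0.54, limma adjusted p = 0.630). On chronic hypoxia membrane 3 its value was the lowest on the membrane, shared with 34 spots in all, 6 of them transporters. Both differences describe positions within the background, so no fold is given.

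Of the 6 sugar transporters none was above background on any membrane, so these membranes give no measured level for the glucose carriers that hypoxia-inducible factors are known to regulate. Slc2a1 (GLUT1) had 3260, 4633 and 1648 in normoxia and 1857, 1754 and 16551 in chronic hypoxia, from -1.66 to 1.27 spreads relative to the median. Its log2 difference was -0.66 (SE 0.83, limma adjusted p = 0.863). Slc2a3 (GLUT3) had 1342, 3503 and 1651 against 1910, 4430 and 16187, with a log2 difference of 1.41 (SE 0.65, limma adjusted p = 0.645), and a spot named glucose transporter protein 2116, 4345 and 1960 against 722, 1957 and 16047, with -1.44 (SE 0.72, limma adjusted p = 0.645). The groups overlapped for all 6. The fructose transporter Slc2a5 and the sodium-coupled glucose transporters Slc5a1 and Slc5a2 of gut and kidney had differences of 0.13, 1.29 and -1.25. Over the class 3 spots were higher and 3 lower, with a median of -0.27, against 0.03 over all tested spots.

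Of the 8 transporters of organic ions, 1 spot was above background. It is named only organic anion transporter, and the deposited name does not tell which gene it is. Its intensity was 3049, 7861 and 7133 in normoxia and 6468, 4133 and 23387 in chronic hypoxia. It was above background on 2 membranes of each group, at 4.62 and 4.81 spreads on normoxia membranes 2 and 3 and at 9.18 and 7.29 on chronic hypoxia membranes 1 and 3. The groups overlapped, with normalized log2 values of 11.96 ± 0.96 (SD, n = 3) and 12.19 ± 0.89 (SD, n = 3), a log2 difference of 0.23 (SE 0.70) and a ratio of 1.17 (limma adjusted p = 0.939, exact permutation p = 0.9). By format it was 1.75 in the first, -1.24 in the second and 0.04 as a block, and with chronic hypoxia membranes 1 and 3 averaged -0.03. The authors' deposited table lists it at 1575 and 4991, a ratio of 3.17. The monocarboxylate transporter Slc16a1, which carries lactate, was above background on no membrane, with a difference of 1.30 (limma adjusted p = 0.645). The organic cation transporter Slc22a2, the organic anion transporters Slc22a6 and Slco1a3, the bile acid transporter Slc10a1 and the dicarboxylate transporter Slc13a2 were at background too; Slc22a2 did not pass the filter.

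No transporter of inorganic ions, urea or urate was above background. The 4 tested ion transporters were the zinc exporter Slc30a1, the thiazide-sensitive cotransporter Slc12a3, a bumetanide-sensitive sodium-potassium-chloride cotransporter and the sodium/phosphate cotransporter 2. Their log2 differences lay between -0.20 and 0.31. The phosphate transporter Slc17a1 and the sulfate transporter did not pass the filter. The urate transporter/channel, named after its values were seen, reached 2.79 spreads on chronic hypoxia membrane 3, the highest value of a transporter that stayed below background on every membrane; its difference was 1.12 and that of the urea transporter 0.46.

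Of the 6 spots above background, 4 adjoined a spot in the brightest 5% on a membrane where they were above it. Slc6a4, Slc6a7 and Slc15a2 are 3 of the 4 spots that adjoin the dopamine transporter, which had intensities of 50204, 24903 and 64432 in normoxia and 47027, 19384 and 47071 in chronic hypoxia. The fourth, the inward rectifier potassium channel RB-IRK2, was above background on 2 normoxia membranes, at 4.07 and 5.48 spreads. On normoxia membranes 2 and 3 Slc6a4, RB-IRK2 and Slc15a2 were above background, on chronic hypoxia membranes 1 and 3 Slc6a7 and Slc15a2, on normoxia membrane 1 Slc15a2 alone and on chronic hypoxia membrane 2 none. The organic anion transporter adjoins synaptotagmin XI, a vesicle protein, with intensities of 19360, 23439 and 65147 in normoxia and 27301, 34815 and 47095 in chronic hypoxia.

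**Figure D3:**
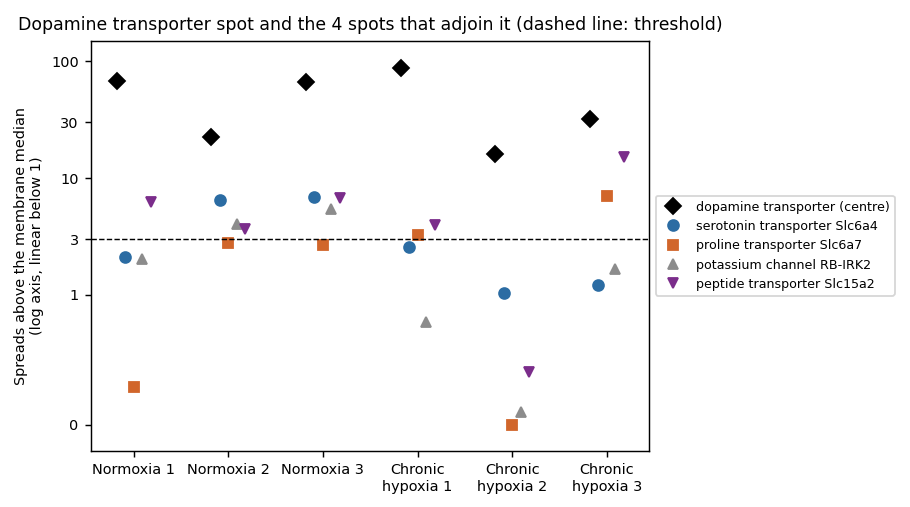
Spreads above the membrane median (y axis, logarithmic above 1) for the dopamine transporter spot and its 4 adjoining spots on each membrane. The dopamine transporter lies between 15.99 and 87.31 on all 6 membranes, and which of the adjoining spots pass the dashed threshold of 3 differs between membranes.

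The 46 transporters gave 276 pairs of spot and membrane, and 34 of these pairs, from 7 transporters, adjoined a spot in the brightest 5% of that membrane. Of the 15 pairs above background 13 were among those 34, and 2 among the other 242. The 2 were Slc7a5 on chronic hypoxia membrane 3, beside CD9 at 31859, and Slc18a1 on normoxia membrane 3, beside the vesicle protein cellubrevin at 12853. Across the array, leaving out the brightest 5% themselves, spots beside such a spot were above background in 35.8%, 39.7% and 65.9% of cases in normoxia, and in 45.0%, 3.28% and 47.7% in chronic hypoxia. Spots not beside one were above it in 4.65%, 3.00% and 5.94%, and in 4.36%, 0.803% and 6.37%. Spread of signal from a bright spot into its neighbours, and its part in the transporter values, was not tested. Slc6a4 and Slc6a7 belong to the same carrier family as the dopamine transporter, so likeness of sequence and place on the membrane cannot be told apart for them.

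**Figure D4:**
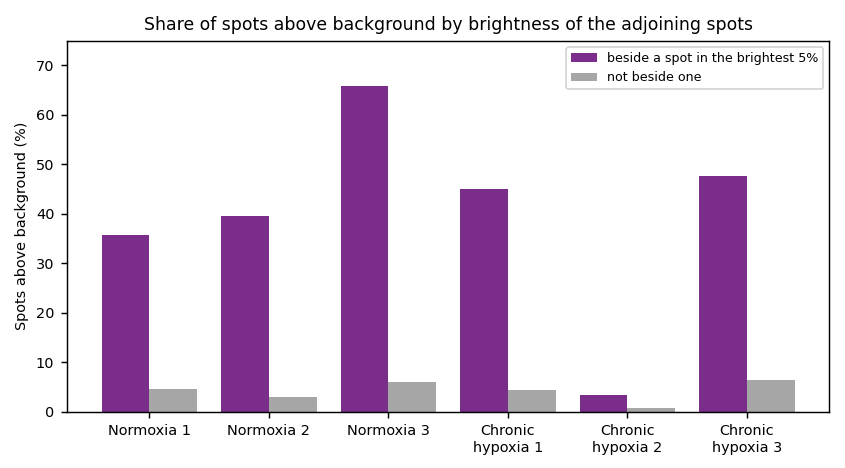
Percent of all spots above background (y axis) on each membrane, for spots that adjoin a spot in the brightest 5% (purple) and spots that do not (grey), without the brightest 5% themselves. The share was higher beside a bright spot on all 6 membranes, from 3.28% against 0.803% on chronic hypoxia membrane 2 to 65.9% against 5.94% on normoxia membrane 3.

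The authors' deposited table lists 2 transporters above 0 in both conditions, Slc15a2 and the organic anion transporter, against 11.1% of all spots. It lists 0 above 0 in normoxia alone, against 5.99%, and 6 (13.0%) in chronic hypoxia alone, against 10.2%. The other 38 are at 0 in both. The 6 in the authors' deposited table are Slc6a7 at 2399, the GluT glutamate transporter at 1971, Slc6a12 at 1913, Slc1a1 at 1576, the sodium-potassium-chloride cotransporter at 2061 and Slc12a3 at 2673. Of these 5 were above background on no membrane. For Slc6a12 and Slc12a3 the fit, with differences of -1.94 and -0.20, and the authors' deposited table had opposite directions. The Slc12a3 difference (SE 0.56, limma adjusted p = 0.938) was 0.07 with format as a block, so its direction was not stable. Slc6a4, Slc7a5 and Slc18a1 are listed at 0 for both conditions in the authors' deposited table.

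Other membrane transport genes, found by name as exchangers, carriers, aquaporins, multidrug resistance proteins or ion pumps, were counted in the same way. Of 29 such spots 6 were above background on at least 1 membrane, against 26.8% of all spots, and 2 on at least 3, against 12.8%. Of the 20 tested 10 were higher and 10 lower, with a median log2 difference of 0.08, and 0 passed (lowest limma adjusted p = 0.645; 1 had an unadjusted p under 0.05, against 7.23% of all tested spots). The 2 on at least 3 membranes, the liver fatty acid-binding protein and the ubiquitin-conjugating enzyme UBE2B, entered by the word carrier in their names and are not membrane transporters. The same holds for sterol carrier protein 2, a lipid-transfer protein, which was above background on 1 normoxia membrane and is among the 6. Of the pumps and exchangers, the calcium pump ATP2B2 and the band 3 anion exchanger were above background on 1 membrane each, and no sodium/potassium ATPase subunit was.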

How the data were processed

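The deposited intensity values hold 1 linear brightness for each of 1185 spots on each of 6 Atlas Rat 1.2 nylon membranes, hybridised with 32P-labelled cDNA from amplified RNA and quantified with AtlasImage 2.0, per the labels' protocols. They include background, with no normalization between membranes. The authors' second table gives 1 intensity per spot and condition, averaged over 3 membranes and normalized to the average signal, per the labels; how background was removed there is not given in the sources used here.

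Intensities were background corrected with normexp (offset 50), put on the log2 scale and quantile normalized (limma 3.58.1, R 4.3.3). Spots that passed the 25th percentile of a membrane on 3 or more of the 6 were tested with lmFit and eBayes on group alone. Benjamini-Hochberg adjustment covered all tested spots; an adjusted p under 0.05 was called. The number of membranes limits the precision. Same-numbered membranes correlated at 0.091, 0.114 and 0.023 in their deviations from the group means, so the numbers were not treated as pairs. Tables were made in Python 3.11.15 with pandas 2.3.3, numpy 2.4.6 and scipy 1.17.1, and figures with matplotlib 3.10.9.

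A spot was above background where it stood over 3 spreads above its membrane's median, the spread being the root mean square distance from the median of the values below it. Named spots were all those above background on at least 1 membrane, the L-type amino acid transporter 1, and the 3 tested transporters with the smallest p in each direction; other named spots were chosen after their values were seen. The 2 spots missing from the figures enter the counts and are not reported singly here. Alternatives covered background correction, normalization, filter, thresholds, blocks, membrane weights and single membranes. The members, lists and tests were chosen with earlier results of these data known. Symbols were assigned by hand to 35 of the 46 spots and found in the RefSeq table of assembly GRCr8. Spot positions were read as block letter, column number and row letter.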

Additional observations from a re-analysis of the deposited data

How the results depend on the processing

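No transporter was called under any of the 17 other settings of the fit; the lowest adjusted p of a transporter over them was 0.185 and of any spot 0.051. Leaving out each membrane in turn gave 0 to 0 calls for transporters and for all spots. The median difference of the tested transporters, 0.12, was -0.06 without normalization between membranes and -0.14 to 0.25 with single membranes left out (lowest without normoxia membrane 1, highest without chronic hypoxia membrane 2). With the membrane number as a replicate block it was 0.12 and 0 transporters were called.

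The number above background on at least 1 membrane was 13 with 2 spreads as the threshold and 5 to 6 with single membranes left out. On at least 3 membranes it was 5 with 2 spreads and 1 with 5 spreads, and 2 to 2 with single membranes left out. Counting only pairs that do not adjoin a spot in the brightest 5%, a setting added after the data were seen, left 2 spots on at least 1 membrane and 0 on at least 3.

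Of the 11 spots named by rule, 3 changed direction. Slc6a7 was -0.08 with chronic hypoxia membranes 1 and 3 averaged, -0.21 with the scan format as a block and -0.21 to 0.88 with single membranes left out, being negative without chronic hypoxia membrane 3 (-0.21) and without normoxia membrane 1 (-0.17). The organic anion transporter was -0.03 with the averaged membranes and -0.22 to 0.81 with single membranes left out, negative without normoxia membrane 1 (-0.22) and without chronic hypoxia membrane 1 (-0.07). Slc15a2 was 0.30 with membrane weights and -0.83 to 0.44 with single membranes left out. The cause was not tested. The other 8 kept their direction in all 16 settings that gave a value. These settings reuse the same membranes, and most of the 8 were named for a small p on them. A kept direction is therefore no separate support. Within a single scan format, Slc6a4 was 0.14 in the first and Slc18a1 0.37 in the second, opposite to their main values. Slc7a5 lay between 0.85 and 1.65, Tap2 between 0.57 and 1.72, Slc2a3 between 0.60 and 1.94, Slc6a4 between -1.21 and -0.41, and Slc18a1 between -1.56 and -0.01. The glucose transporter protein lay between -2.02 and -0.57, Slc6a12 between -2.24 and -0.76 and the sodium-dependent neurotransmitter transporter between -2.24 and -0.77.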
